A study of Mus musculus with 6 samples.

Results

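Genes of ribosome biogenesis and RNA polymerase I were followed in 2 pluripotent states of the mouse, embryonic stem cells (ESCs) and the epiblast-like cells (EpiLCs) set against them. Members were the entries of the expression table whose symbol begins with Utp, Nop, Nol, Rrp or Polr1 followed by digits or lower-case letters, which gave 48 of 78298 genes. Both states were wild-type cells of 1 mouse line, BVSC clone H18, so results describe that clone. BVSC lines are known to carry fluorescent reporter transgenes for Prdm1 and Dppa3, which the labels do not mention. Each state had 3 libraries, 6 in all, made from poly(A) RNA. ESCs stand for the epiblast before implantation and EpiLCs for the epiblast soon after it. The labels give no culture medium, agent or day for either state, and a tag reading 0uM in the column names is not explained there. Values were TPM, which corrects for transcript length and sets each library's total to 1000000, so the sequencing depth behind each value is unknown. Libraries of a state are labelled biological replicates, but how cultures were kept apart is not stated, and p-values therefore cover only the spread seen among these libraries, which may be technical.

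Ribosomes are built in the nucleolus. RNA polymerase I transcribes a long precursor that holds most ribosomal RNAs, and a large assembly on the nascent precursor, the small-subunit processome, folds and cleaves it with the help of small nucleolar ribonucleoproteins (snoRNPs). Separate factors mature the large subunit. Pluripotent cells divide quickly and have prominent nucleoli, and the MYC factors are known activators of this gene program. Ribosomal RNA itself is not polyadenylated, so these libraries measure the mRNAs of the machinery and not its product.

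The state labels were checked first. Summed TPM of 5 naive markers (Klf4, Esrrb, Tbx3, Tfcp2l1, Nr0b1) was 722 to 775 in ESC libraries and 27.2 to 30.9 in EpiLC libraries, and that of 5 EpiLC markers (Dnmt3b, Dnmt3a, Fgf5, Otx2, Pou3f1) was 34.1 to 35.6 and 801 to 1080. Pou5f1 and Sox2, set as markers of both states, were present in both but lower in EpiLCs. Their mean TPM in ESCs and EpiLCs was 1135 and 976 for Pou5f1 and 201 and 74.5 for Sox2. Markers of other cell types were low but not equal between states. For 7 fibroblast markers the sum was 7.21 to 10.3 TPM in ESCs and 14.2 to 17.0 in EpiLCs, and of those Dcn and Col3a1 were at 0 in all ESC libraries. The members did not move as one: mean TPM in ESCs and EpiLCs was 3.24 and 11.2 for Thy1 and 0 and 2.26 for Dcn, but 4.37 and 1.35 for Pdgfrb and 0.918 and 0.380 for Col1a1. Germ layer markers summed to 3.33 to 4.09 and 10.5 to 19.6 TPM, primitive endoderm markers to 5.02 to 5.88 and 0.949 to 2.12, and trophoblast markers to 5.89 to 6.91 and 2.99 to 4.78. Sox1 (1.88 and 11.1 TPM) and Pax6 (0.248 and 2.86 TPM) made up most of the germ layer difference, while T was at 0.932 and 0.356 TPM. Eomes (5.91 and 2.37 TPM) made up the trophoblast difference, while Gata3 (0.166 and 1.00 TPM) and Cdx2 (0.0257 and 0.219 TPM) were higher in EpiLCs. The 3 blood markers reached 8.60 TPM in 1 ESC library, nearly all of it Hba-a1, were at 0 in both other ESC libraries, and lay between 0.814 and 2.57 in EpiLCs. The part of such cells in the results below was not tested. In bulk RNA, fewer cells of a type and less RNA per cell cannot be told apart.

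Most members were higher in EpiLCs, by modest amounts. Of the 48 members, 46 had a mean of at least 1 TPM and were tested with limma on log2(TPM + 1), with p-values adjusted by Benjamini-Hochberg across the 14036 genes tested. At an adjusted p of 0.05, 31 members (67.4%) rose and 5 (10.9%) fell. Over all tested genes 36.1% rose and 30.9% fell, so 66.9% passed in either direction, as did 36 of the 46 members. Every EpiLC library lay above every ESC library for 31 members and below for 6, beside 38.4% and 33.1% of all tested genes. The median log2 fold change, EpiLC minus ESC, was 0.37 over tested members and 0.037 over all tested genes. On that log2(TPM + 1) scale Polr1b was the only member called with a rise of at least 2-fold, and 9.87% of all tested genes met that mark. Nol4l, which has no established role in ribosome biogenesis, was the only member called with a fall of at least 2-fold on that scale. Of all tested genes 9.4% met that mark. In plain TPM the called members Polr1e and Nol3 also passed 2-fold, with EpiLC to ESC ratios of means of 2.03 and 0.413.

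Symbols alone do not make a pathway. Nol3, Nol4 and Nol4l share the nucleolar prefix, but Nol3 encodes an apoptosis repressor, and none of these genes is an established ribosome biogenesis factor. Polr1has is the gene head to head with Polr1h. Without those 4 genes, 31 of 43 tested genes rose and 2 fell (72.1% and 4.65%, against 36.1% and 30.9% of all tested genes). The fallen genes were Polr1h and Rrp36. Nol4 and Nopchap1, a chaperone of box C/D snoRNP assembly, were under 1 TPM on average and were not tested. Nopchap1 was at 0.518 ± 0.00739 TPM in ESCs and 0.776 ± 0.0570 in EpiLCs (SD, n = 3 each), and Nol4 did not exceed 0.562 TPM in any library.

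**Figure D1:**
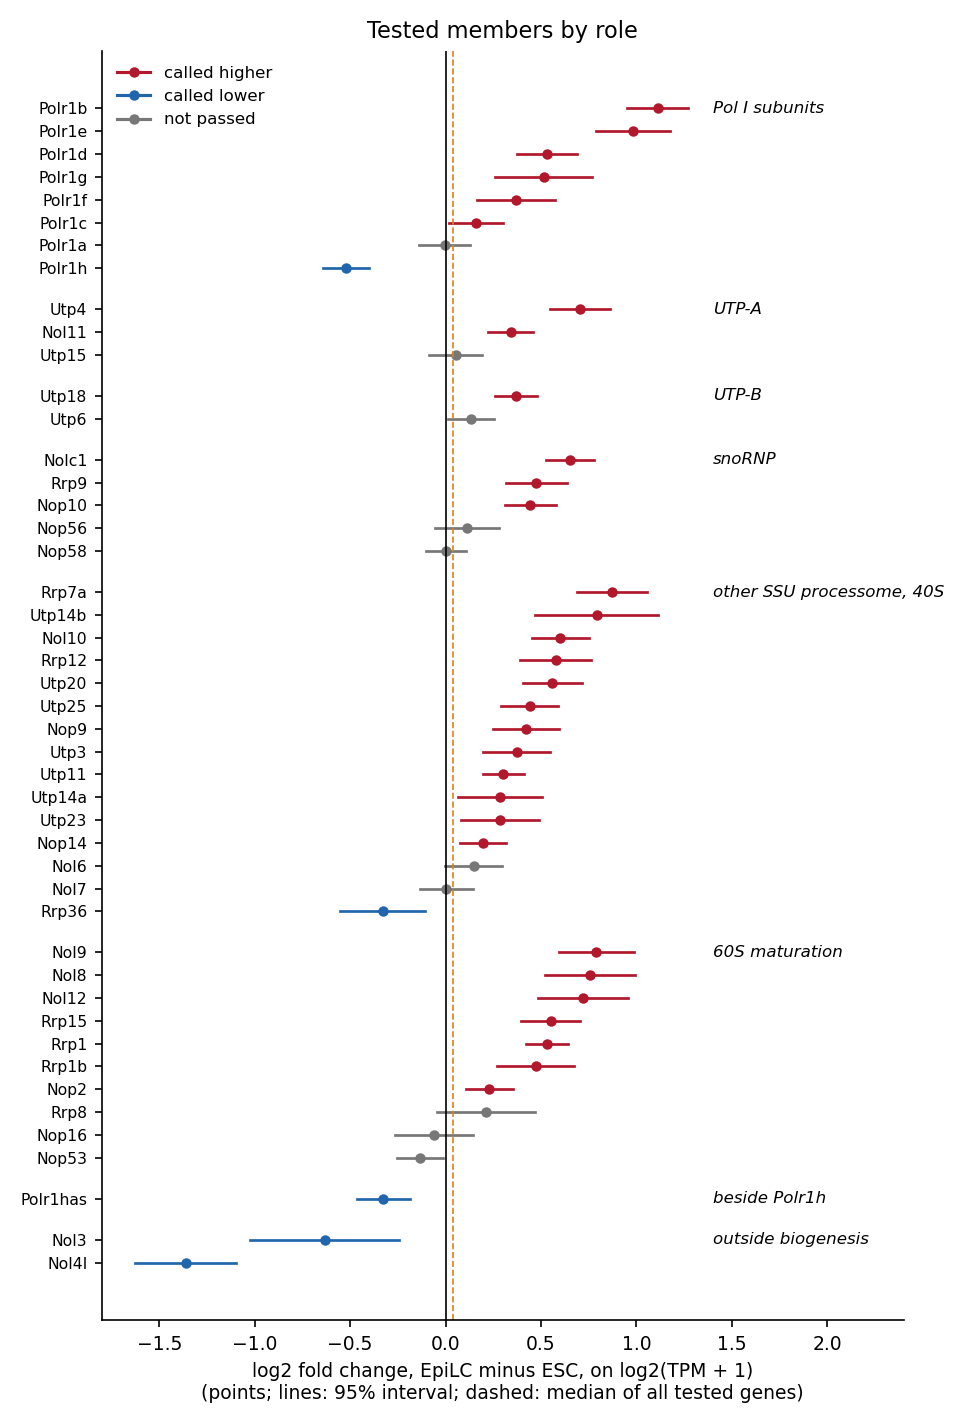
The x axis gives the log2 fold change, EpiLC minus ESC, on log2(TPM + 1), with its 95% interval, for the 46 tested members grouped by role. Points lie mostly right of the dashed line, which marks the median of all tested genes (0.037), and Polr1b (1.11) and Nol4l (-1.36) are the extremes.

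Summed over all 48 members, the level was 3538, 3581 and 3548 TPM in the ESC libraries and 4207, 4206 and 4346 TPM in the EpiLC libraries. The groups did not overlap, and the ratio of means was 1.20. These sums were 0.354% to 0.358% of an ESC library and 0.421% to 0.435% of an EpiLC library. The mRNAs of the proteins that make up the finished ribosome were lower in EpiLCs. Cytosolic ribosomal protein genes, 76 by name and chosen after results were known, made up 21.6% to 22.6% of TPM in ESC libraries and 18.9% to 19.7% in EpiLC libraries. Ribosomal protein TPM was 60.8 to 63.0 times member TPM in ESCs and 43.4 to 46.7 times in EpiLCs. Of these 76 genes, 1 rose and 57 fell (1.32% and 75.0%, against 36.1% and 30.9% of all tested genes), with a median log2 fold change of -0.19. With quantile normalization 5 were higher and 39 lower, and between 43 and 61 were lower in the other alternatives. Processed pseudogenes of this family share sequence with the parents, which leaves single values and their sums uncertain. TPM has a fixed total per library, so the shares of the ribosomal protein genes and of the members are not independent.

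**Figure D2:**
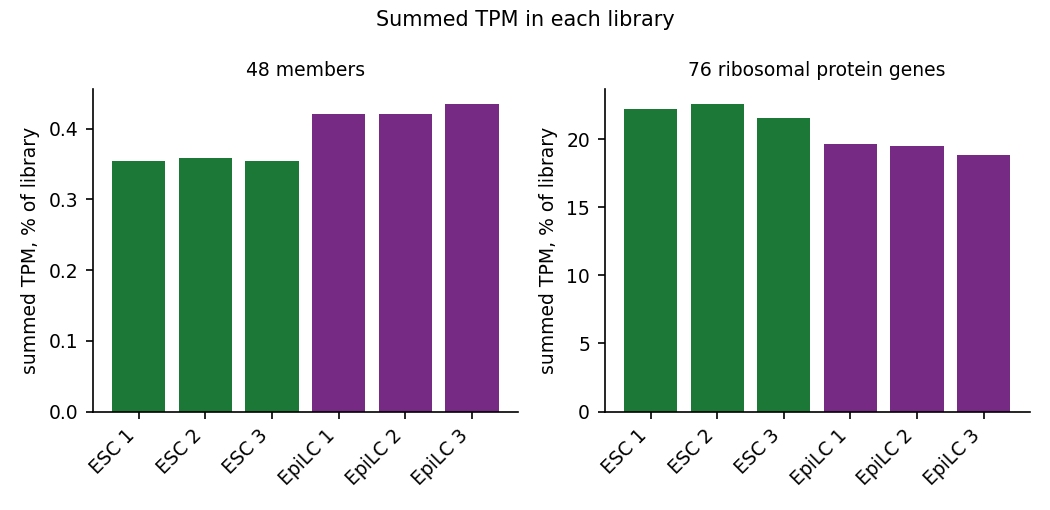
Bars give summed TPM as a percentage of each library for the 48 members (left) and the 76 cytosolic ribosomal protein genes (right), with both axes from 0. The members were higher and the ribosomal protein genes lower in all 3 EpiLC libraries.

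Sequences upstream of the starts are shown as a description of the members, and any link between them and expression was not tested. RefSeq windows (GRCm38.p6, a different build from the mm39 named in the submitters' processing notes) matched 40 of 48 members. In the 250 bases upstream of the first listed start, the palindrome CACGTG, an E-box that MYC and MAX and several other factors can bind, was present in 7 of 40 members (17.5%) and in 6.64% of 17492 protein-coding genes. The holders were Nop2, Nol11, Utp18, Utp14b, Rrp7a and Polr1g, which all rose, and the untested Nopchap1. Utp14b lies within Acsl3 on the same strand in GENCODE M21, so its window may also be sequence of Acsl3. Among members that rose, 6 of 28 held it (21.4%), and the 7 windows of members that did not pass the test and the 4 of members that fell held none. With so few windows the calls cannot be compared, and no difference between them was tested. The 17492 protein-coding genes were taken whether expressed here or not. The GC box, searched as GGGCGG or CCGCCC, was present in 65.0% of the member windows and 42.7% of protein-coding genes, with median GC contents of 56.2% and 55.2%. A match describes letters and does not show binding. The 100 bases upstream of the start follow, 5′ to 3′ on the gene's strand, for the 4 members whose E-box (in capitals) lay closest to the start. The largest Pol I subunits, Polr1b and Polr1a, have none in this window and are shown for their contrast in expression. The Nop2 start rests on RefSeq alone, since the bases that follow it were found in no GENCODE M21 transcript of Nop2.
Nop2 (chr6:125131783-125131882, plus strand; E-box from base -60): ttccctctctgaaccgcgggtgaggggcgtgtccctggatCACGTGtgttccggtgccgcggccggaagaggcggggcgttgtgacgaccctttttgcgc
Nol11 (chr11:107189382-107189481, minus strand; from base -43): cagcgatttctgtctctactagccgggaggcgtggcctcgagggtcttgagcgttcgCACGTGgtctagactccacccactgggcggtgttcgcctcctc
Utp18 (chr11:93885767-93885866, minus strand; from base -20): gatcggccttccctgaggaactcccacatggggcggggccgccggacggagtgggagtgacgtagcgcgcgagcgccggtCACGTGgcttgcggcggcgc
Utp14b (chr1:78658340-78658439, plus strand; from base -63): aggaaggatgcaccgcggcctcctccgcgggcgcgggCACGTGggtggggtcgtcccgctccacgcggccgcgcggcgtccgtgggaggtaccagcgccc
Polr1b (chr2:129100896-129100995, plus strand): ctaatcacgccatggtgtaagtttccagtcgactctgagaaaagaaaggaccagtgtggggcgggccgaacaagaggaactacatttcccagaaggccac
Polr1a (chr6:71908953-71909052, plus strand): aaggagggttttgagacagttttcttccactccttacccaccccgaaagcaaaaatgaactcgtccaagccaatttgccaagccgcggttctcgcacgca

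RNA polymerase I subunits did not change as a block. Of the 8 subunit genes, 6 rose and 1 fell (75.0% and 12.5%, against 36.1% and 30.9% of all tested genes). The remaining gene did not pass the test. The enzyme has a pair of large subunits that together form its catalytic centre, encoded by Polr1a and Polr1b. Polr1b (ENSMUSG00000027395) was at 21.3, 21.4 and 23.3 TPM in ESC libraries and 45.8, 49.0 and 51.4 TPM in EpiLC libraries. Every EpiLC value exceeded every ESC value (log2 fold change 1.11, SE 0.07, limma adjusted p = 5.9e-06). Polr1a (ENSMUSG00000049553) was at 73.3, 79.0 and 72.0 TPM in ESCs and 71.5, 74.8 and 77.4 TPM in EpiLCs. Those ranges overlapped, and the 95% interval of its log2 fold change ran from -0.14 to 0.13. TPM being scaled for length, the level of Polr1b was 0.271 to 0.324 of that of Polr1a in ESC libraries and 0.641 to 0.664 in EpiLC libraries.

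Polr1e and Polr1g encode the heterodimer that sits on the polymerase core and aids elongation and initiation. Polr1e (ENSMUSG00000028318) was at 19.4, 20.1 and 17.0 TPM in ESCs and 40.9, 36.7 and 36.7 TPM in EpiLCs. All EpiLC libraries lay above all ESC libraries (log2 fold change 0.98, SE 0.08, limma adjusted p = 2.8e-05). Its partner Polr1g, at 13.1, 11.0 and 12.7 TPM and then 18.5, 15.6 and 19.7 TPM, also rose without overlap between states (log2 fold change 0.51, SE 0.11, limma adjusted p = 0.0038). Polr1f, the stalk subunit that contacts the initiation factor RRN3, rose by a log2 fold change of 0.37, with at most 16.6 TPM in ESCs and 19.4 to 23.3 TPM in EpiLCs.

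Polr1c and Polr1d encode an assembly platform that RNA polymerase III also uses. Polr1d had 123, 104 and 111 TPM in ESCs and 169, 163 and 156 TPM in EpiLCs, with no overlap, and rose by 0.53 on the log2 scale (SE 0.07, limma adjusted p = 2.5e-04). For Polr1c the values were 179, 159 and 158 TPM in ESCs and 189, 188 and 177 TPM in EpiLCs, so the ranges overlapped. Its call as higher (log2 fold change 0.16, limma adjusted p = 0.047) held in 7 of 14 alternatives. It was lost without ESC replicate 2 or 3 or EpiLC replicate 1 or 2, with median-of-ratios scaling, with no filter on low values and without a variance trend (adjusted p between 0.10 and 0.15).

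Polr1h (ENSMUSG00000036315), the small subunit that supports RNA cleavage by the enzyme, was the subunit gene that fell. It was at 86.9, 85.9 and 85.6 TPM in ESCs and 63.0, 58.2 and 58.2 TPM in EpiLCs. No EpiLC value reached an ESC value (log2 fold change -0.52, SE 0.05, limma adjusted p = 6.5e-05). Its head-to-head neighbour Polr1has fell as well, from 32.9, 33.2 and 30.8 TPM to 25.5, 25.8 and 25.4 TPM (log2 fold change -0.33 with SE 0.06, limma adjusted p = 0.0017). In the RefSeq windows, 74 bases separate the starts of this pair on opposite strands. Per the labels the libraries kept strand, but the sources used here do not say whether counting used it.

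**Figure D3:**
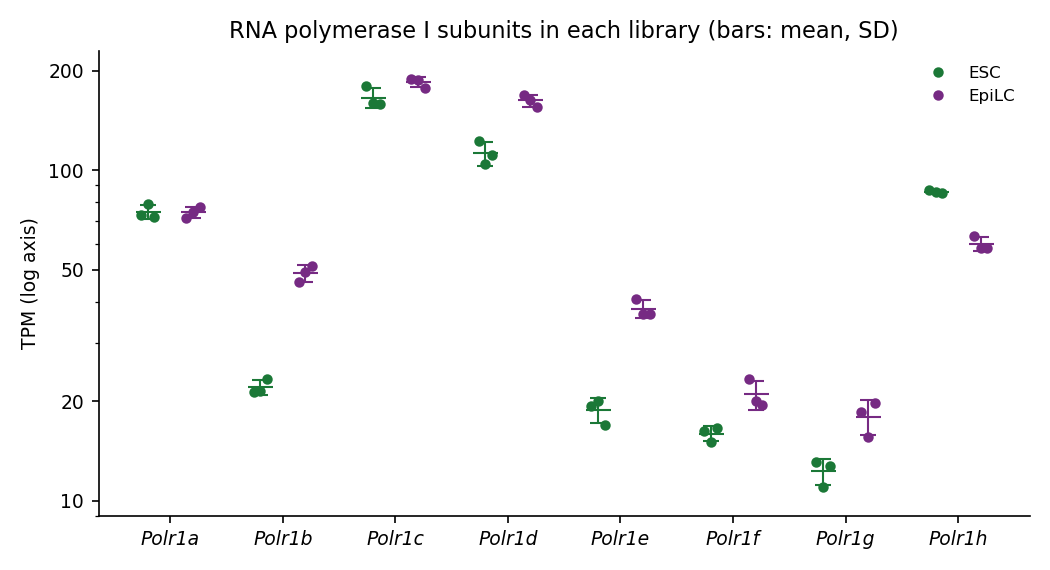
Points give TPM (log axis) of the 8 RNA polymerase I subunit genes in each of 3 ESC and 3 EpiLC libraries, with mean and SD as bars. Polr1b and Polr1e separate most upward, Polr1a overlaps, and Polr1h lies lower in EpiLCs.

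A list of 13 genes held Pol I initiation or termination factors, shared small subunits and Znrd2, which has no established Pol I role. Of these, 6 rose and 2 fell (46.2% and 15.4%, against 36.1% and 30.9% of all tested genes). Their median log2 fold change was 0.19. The share that rose is near that of all tested genes, so it is no result about these factors. Rrn3, which brings the polymerase to the promoter, rose from 99.2 ± 2.87 to 144 ± 1.84 TPM, and Taf1a, a subunit of the promoter selectivity factor, rose from 2.68 ± 0.233 to 7.19 ± 0.876 TPM (SD, n = 3 each). Znrd2 and Polr2l rose by 1.01 and 0.64 on the log2 scale. For Ubtf, which keeps ribosomal DNA open, levels of 101 ± 2.90 and 95.8 ± 4.31 TPM missed the threshold (limma adjusted p = 0.21). Polr2e, a subunit shared by the nuclear polymerases, was lower in EpiLCs, at 164 ± 8.98 TPM after 342 ± 12.4 TPM in ESCs, and fell by 1.05 on the log2 scale, with a limma adjusted p of 2.4e-06. Ttf1, the termination factor, fell from 12.1 ± 0.111 to 10.2 ± 0.604 TPM (limma adjusted p = 0.034), a call lost without any single library other than EpiLC replicate 2. Of 11 RNA polymerase III subunit genes, 7 rose, among them Polr3f (0.70) and Polr3e (0.57), and 2, Polr3gl (-0.80) and Crcp (-0.62), fell (log2 fold changes). Those counts are 63.6% and 18.2%, against 36.1% and 30.9% of all tested genes.

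The processome binds the precursor in modules. UTP-A, also called t-UTP for its link to transcription, binds first. Its member Utp4 was at 79.0, 90.2 and 88.0 TPM in ESCs and 131, 143 and 146 TPM in EpiLCs, with no overlap (log2 fold change 0.70, SE 0.07, limma adjusted p = 5.2e-05). Nol11 rose from 63.0 ± 1.21 to 80.1 ± 2.90 TPM (log2 fold change 0.34). Utp15 had 31.7 ± 0.518 TPM in ESCs and 32.9 ± 1.51 TPM in EpiLCs and missed the threshold, with a 95% interval from -0.085 to 0.19 on the log2 scale. In the UTP-B module, Utp18 had 58.5 to 61.7 TPM in ESCs and 77.4 to 79.4 TPM in EpiLCs, a rise of 0.37 on the log2 scale (SE 0.05, limma adjusted p = 2.7e-04). Utp6, at 84.7, 82.0 and 90.4 TPM in ESCs and 93.6, 94.6 and 93.5 TPM in EpiLCs, missed the threshold (log2 fold change 0.13, limma adjusted p = 0.053) although its ranges did not overlap. It passed without ESC replicate 3 (adjusted p = 0.029, with 0.18 as the highest over alternatives).

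The proteins of snoRNPs included Nop58, the most abundant member. Nop58 and Nop56 are the paired core proteins of box C/D snoRNPs, which guide ribose methylation. Nop58 (ENSMUSG00000026020) was at 433, 470.1 and 470.5 TPM in ESCs and 462, 453 and 461 TPM in EpiLCs. The groups overlapped, and the 95% interval of its log2 fold change was -0.10 to 0.11. Nop56 (ENSMUSG00000027405) was at 276, 309 and 275 TPM in ESCs and 311, 286 and 334 TPM in EpiLCs, also overlapping (interval -0.054 to 0.28). Nop56 overlaps Idh3b on the opposite strand, and Idh3b was at 147 TPM in ESCs and 84.3 TPM in EpiLCs. The level of Nop56 relative to Nop58 was 0.585 to 0.658 in ESC libraries and 0.630 to 0.726 in EpiLC libraries, again with overlap.

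The other snoRNP genes tested, 3 of 5, rose. Nolc1, a nucleolar chaperone of snoRNPs, was at 131, 129 and 128 TPM in ESCs and 191, 203 and 217 TPM in EpiLCs, well apart (log2 fold change 0.65, SE 0.05, limma adjusted p = 2.7e-05). Nop10, the smallest protein of box H/ACA snoRNPs, rose from 108 ± 3.07 to 148 ± 9.20 TPM (log2 fold change 0.44). Rrp9, specific to the U3 snoRNP that the processome needs for early cleavages, rose from 97.0 ± 6.72 to 135 ± 8.30 TPM (log2 fold change 0.48). Gar1 and Dkc1, box H/ACA proteins that are not members by symbol, moved in opposite directions. Gar1 rose from 146 ± 4.13 to 259.8 ± 18.4 TPM, while Dkc1, the pseudouridine synthase, was at 384 ± 29.4 TPM in ESCs and 275 ± 20.5 TPM in EpiLCs and fell by 0.48 on the log2 scale, with a limma adjusted p of 6.6e-04. In GENCODE M21, 10 snoRNA genes lie within Nop53, Nop56 and Nop58 on the same strand, and 9 of them were at 0 TPM in every library of this poly(A) data set.

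**Figure D4:**
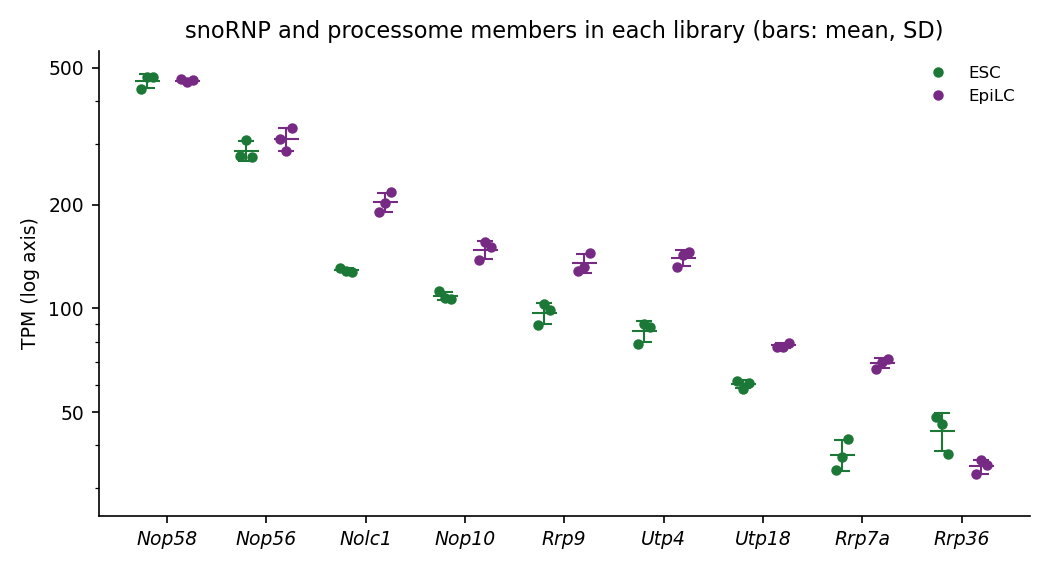
Points give TPM (log axis) of snoRNP and processome members in each library, with mean and SD as bars. Nop58 and Nop56 overlap between states, the next 6 genes are higher in all EpiLC libraries, and Rrp36 is lower.

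Most of the other small-subunit factors rose. Of 15 tested, 12 rose and 1 fell (80.0% and 6.67%, against 36.1% and 30.9% of all tested genes). Rrp7a, a processome protein, was at 33.9, 37.0 and 41.7 TPM in ESCs and 66.7, 69.9 and 71.2 TPM in EpiLCs, and its groups stood apart (log2 fold change 0.87, SE 0.08, limma adjusted p = 4.0e-05). Serhl, which overlaps it on the opposite strand, was at 10.8 TPM in ESCs and 4.97 TPM in EpiLCs. Nol10 rose from 48.0 ± 0.966 to 73.4 ± 5.34 TPM, Utp20, a very large scaffold protein, from 27.9 ± 1.36 to 41.6 ± 2.07 TPM, and Rrp12, which acts in nuclear export of the small subunit in yeast, from 23.7 ± 2.13 to 35.8 ± 1.83 TPM (log2 fold changes 0.60, 0.56 and 0.58). Smaller rises were those of Utp25 (0.44), Nop9 (0.42), Utp3 (0.37), Utp11 (0.30), Utp23 (0.28) and Nop14 (0.20, limma adjusted p = 0.010), all on the log2(TPM + 1) scale. The Utp23 call (limma adjusted p = 0.021) was lost without ESC replicate 1 and without EpiLC replicate 1 (adjusted p = 0.063 and 0.068, the latter the highest over alternatives). Nol7, the most abundant gene of this group, missed the threshold at 166 ± 2.43 TPM in ESCs and 167 ± 12.6 TPM in EpiLCs. Nol6 missed it as well, at 54.2 ± 3.22 and 60.1 ± 2.91 TPM (limma adjusted p = 0.077).

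Utp14a and Utp14b are copies of 1 gene, an X-linked parent and an autosomal retrogene known for its need in male germ cells. Utp14b was at 11.7, 8.88 and 13.4 TPM in ESCs and 21.5, 20.0 and 18.9 TPM in EpiLCs, without overlap (log2 fold change 0.79, SE 0.14, limma adjusted p = 0.0013). Utp14a was at 80.6, 62.4 and 76.1 TPM in ESCs and 89.9, 83.9 and 92.3 TPM in EpiLCs. Its groups did not overlap either, and its call (log2 fold change 0.28, limma adjusted p = 0.029) held in 9 of 14 alternatives. It was lost without EpiLC replicate 1 or 3, with median-of-ratios scaling, with no filter and without a variance trend (adjusted p between 0.055 and 0.089). The level of Utp14b was 0.142 to 0.176 of that of Utp14a in ESC libraries and 0.204 to 0.240 in EpiLC libraries. Utp14b lies within Acsl3 on the same strand in GENCODE M21, and Acsl3 itself rose from 119 to 141 TPM (log2 fold change 0.24), so reads of Utp14b may not be separable from Acsl3 or from its parent. The pseudogene Utp14b-ps1 was at 0 in every library.

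Rrp36, which acts in early precursor cleavage, was the small-subunit factor that fell. It was at 48.5, 46.2 and 37.8 TPM in ESCs and 33.0, 36.2 and 35.1 TPM in EpiLCs, so ESC replicate 3 was close to the EpiLC values (log2 fold change -0.33, SE 0.10, limma adjusted p = 0.017). Leaving out the first or the second ESC library or the first EpiLC library ended the call (adjusted p of 0.060, 0.053 and 0.058, with 0.060 the highest over alternatives).

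Large-subunit factors rose in 7 of 10 cases (70.0%, against 36.1% of all tested genes). By limma 0 passed as lower (against 30.9% of all tested genes), and 1, Nop53, was lower at an unadjusted p under 0.05. Nol9, a polynucleotide kinase that processes a spacer of the precursor, was at 43.6, 50.8 and 44.3 TPM in ESCs and 72.8, 83.1 and 85.9 TPM in EpiLCs, a clear separation (log2 fold change 0.79, SE 0.08, limma adjusted p = 9.6e-05). Nol8 rose from 19.7 ± 0.817 to 34.2 ± 4.79 TPM and Nol12, an RNA-binding protein of spacer processing, from 20.7 ± 1.88 to 34.9 ± 3.82 TPM (log2 fold changes 0.76 and 0.72). The paralogs Rrp1 and Rrp1b both rose, from 128 ± 5.29 to 185 ± 3.99 TPM and from 70.1 ± 9.18 to 97.1 ± 2.42 TPM (log2 fold changes 0.53 and 0.47). Rrp1b overlaps Hsf2bp on the opposite strand, and that neighbour fell from 97.2 to 53.5 TPM. Rrp15 rose from 59.4 ± 5.02 to 87.3 ± 0.384 TPM, and Nop2, the cytosine methyltransferase of large-subunit ribosomal RNA, by a log2 fold change of 0.23 (limma adjusted p = 0.0053).

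Nop53, which brings the RNA exosome to large-subunit precursors in yeast, was the most abundant gene of that group. Its values were 314, 314 and 302 TPM in ESCs and 295, 289.7 and 263 TPM in EpiLCs. All EpiLC values were below all ESC values, yet the gene missed the threshold (log2 fold change -0.14, SE 0.05, limma adjusted p = 0.051). It passed as lower in 5 of 14 alternatives, among them median-of-ratios scaling, quantile normalization and the fit without EpiLC replicate 1 (adjusted p = 0.011, 0.011 and 0.040, with 0.14 as the highest). Nop16 and Rrp8, a methyltransferase of large-subunit ribosomal RNA, did not pass the test (log2 fold changes -0.062 and 0.21, limma adjusted p = 0.56 and 0.13).

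Biogenesis genes that the symbol rule leaves out, a list chosen with earlier results of these data known, also mostly rose. Of 77 such genes, all tested, 62 rose and 4 fell (80.5% and 5.19%, against 36.1% and 30.9% of all tested genes), with a median log2 fold change of 0.42. Across the alternatives between 58 and 62 passed as higher and 4 as lower. Mrto4, a large-subunit assembly factor, rose most, to 235 ± 5.02 TPM from 106 ± 1.78 TPM (log2 fold change 1.15, limma adjusted p = 5.7e-07). Imp4, of the U3 snoRNP, and Pinx1, a nucleolar protein, rose by 0.93 and 0.88 on the log2 scale. The abundant nucleolar genes rose as well, Npm1 from 4664 ± 184 to 6236 ± 66.8 TPM, Ncl from 960.2 ± 42.5 to 1687 ± 77.1 TPM and Fbl, the methyltransferase that works with NOP56 and NOP58, from 323 ± 0.829 to 401 ± 9.37 TPM (log2 fold changes 0.42, 0.81 and 0.31). Besides Dkc1, the genes that fell were Ngdn (-0.44), Sbds (-0.19) and Cebpz (-0.18). The RNA exosome and its cofactors trim precursor ends. Of 13 tested genes of this list, 8 rose and 1 fell (61.5% and 7.69%, against 36.1% and 30.9% of all tested genes). Exosc4, Dis3 and Exosc1 were up by 0.88, 0.75 and 0.71 and Exosc8 down at -0.20. The calls of Exosc9 and Exosc2 as higher were lost in some alternatives.

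**Figure D5:**
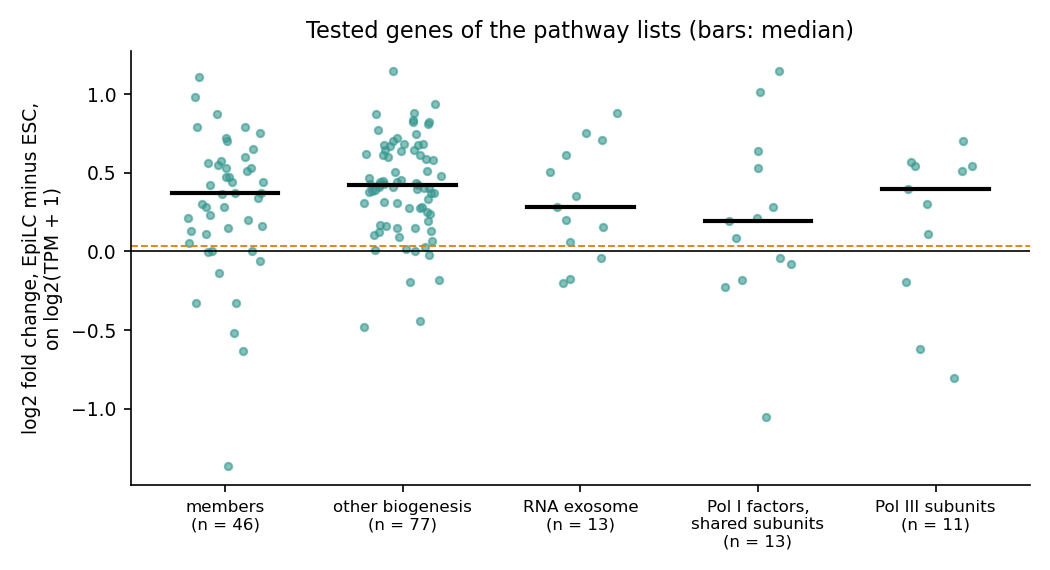
Points give the log2 fold change, EpiLC minus ESC, on log2(TPM + 1) of each tested gene in 5 lists, with the list median as a bar and the median of all tested genes (0.037) dashed. Medians were 0.37 for members, 0.42 for other biogenesis genes and 0.28 for the RNA exosome. They were 0.19 for Pol I factors with shared subunits and Znrd2, and 0.39 for Pol III subunits.

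Genes of the MYC family, known activators of this program, were also higher. Myc was at 0.710 ± 0.120 TPM in ESCs and 60.7 ± 16.4 TPM in EpiLCs, Mycn at 16.7 ± 3.14 and 43.0 ± 5.99 TPM and Mycl at 5.06 ± 0.156 and 13.3 ± 0.696 TPM (SD, n = 3 each, limma adjusted p at most 1.2e-04). Max, their shared partner, was at 45.5 ± 4.76 and 56.7 ± 5.77 TPM, and its call as higher (limma adjusted p = 0.021) was lost without ESC replicate 1 or 3 or EpiLC replicate 3, with median-of-ratios scaling and with no filter. Any link between these genes and the members was not tested.

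Outside ribosome biogenesis, Nol4l showed the steepest change of all tested members. It was at 13.4, 17.0 and 15.4 TPM in ESCs and 4.91, 5.10 and 5.98 TPM in EpiLCs, with a wide gap between the groups. Nol3 was weakly expressed, at 1.22, 2.10 and 1.42 TPM in ESCs and 0.669, 0.812 and 0.477 TPM in EpiLCs, again without overlap. It overlaps Matcap1 on the opposite strand, which rose from 1.73 to 8.53 TPM.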

How the data were processed

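The authors deposited 1 table of TPM values with 1 column per library, and each column summed to 1000000. Poly(A) RNA was selected and libraries kept strand, per the labels' protocols. The submitters' processing notes list STAR, Salmon, FastQC and Trim Galore and the build mm39/GRCm39, without versions or the step from transcripts to genes. TPM keeps no depth, so no counts, counting intervals or count model were used. Columns were matched to samples by state and replicate number.

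Genes with a mean of at least 1 TPM (14036) were tested as log2(TPM + 1), which understates changes of weak genes. The test was limma 3.58.1 in R 4.3.3 (lmFit, eBayes with a variance trend, two-sided, Benjamini-Hochberg over all tested genes, threshold 0.05). The code was also run on simulated data with few changed genes and changes larger than the member median. That run does not cover small or widespread changes. Tables used Python 3.11.15 and pandas 2.3.3. The members and lists were chosen with earlier results of these data known. Named genes were, by rule, all Pol I subunits and, per role group, the 3 most abundant members, the 2 largest rises and falls and those against the group's direction, and, of other lists, the 3 largest called changes each way and set genes (Myc, Mycn, Mycl, Fbl, Ncl, Npm1, Ubtf, Rrn3). The remaining members, Gar1, Cebpz, Max, the ribosomal protein list and overlapping neighbours were named after values were seen. A gene that the rule would name is not reported here. GENCODE M21 (GRCm38) gave overlapping neighbours, and RefSeq GRCm38.p6 the promoter windows. Alternatives were pseudocounts of 0.1 and 0.5, no filter and a filter at 5 TPM, 2 scalings, no variance trend, a replicate block and leaving out each library.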

Additional observations from a re-analysis of the deposited data

How the results depend on the processing

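Across 14 alternatives, between 28 and 31 members passed as higher and between 4 and 6 as lower. The median log2 fold change of members was between 0.32 and 0.38. Of the 46 tested members, 40 had 1 call throughout, and none changed direction with a call. The members whose calls moved are Polr1c, Utp14a, Utp23, Rrp36, Nop53 and Utp6. Median-of-ratios scaling shifted the median of all tested genes from 0.037 to -0.0069 and the ratio of summed member TPM from 1.20 to 1.16, and left 29 members higher and 6 lower. Without each library in turn that ratio was 1.18 to 1.20. With replicate number as a replicate block, 31 members were higher and 6 lower, the added one being Nop53 (adjusted p = 0.024). Same-numbered ESC and EpiLC libraries correlated at 0.10, 0.14 and 0.065 in their deviations from the group means. Each library correlated best with its own number, a hint from the data and not from the design. The labels give replicate numbers but state no pairing, so the main fit left the libraries unpaired. The replicate block fit above gives the calls with pairing by number. With 3 libraries a group and TPM only, small changes such as those of Nol6 and Utp6 could not be resolved further.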
